A study of Mus musculus with 18 samples.

Results

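Tumours beside which IFN-alpha-iPSC-pMCs had been injected (right) were compared with the distant tumours (left) of the same treatment group, across all genes measured. This comparison used 6 of the 18 bulk RNA sequencing libraries of the series, 3 right and 3 left, chosen by their titles. All 18 came from C57BL/6 mice that carried MO4 tumours in both hindlimbs, seeded under the skin on day 0 with 100000 cells per side. MO4 is a B16F10 melanoma line that expresses ovalbumin. In the IFN-alpha-pMC mice, 1000000 stem-cell-derived cells (iPSC-pMCs) marked IFN-alpha were injected next to the right-hand tumour on each of days 5, 6 and 7, and tumour RNA was taken on day 11. The pMC mice received cells without that mark on the same schedule, and the control mice were left untreated, so that their right tumours had no cells placed beside them. The labels give neither the mouse age, nor which IFN-alpha gene the cells carried, nor whether a library is 1 animal, and the spread behind each p-value is that between these samples, which may be technical. Libraries are named right 1 to 3 and left 1 to 3, and values are listed in that order. Levels are counts per 1000000 counts of the library (CPM), which compare 1 gene between libraries and not genes with each other. A difference is log2, right minus left, with its standard error (SE), and adjusted p-values come from edgeR's quasi-likelihood test unless another tool is named. A gene is called higher or lower where its adjusted p is under 0.05.

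As background, type I interferons such as IFN-alpha bind a receptor found on almost all cells and switch on antiviral genes. They also act on immune cells: they help dendritic cells to prime CD8 T cells and they activate natural killer (NK) cells. Both killer cell types store perforin, which opens the target membrane, and granzymes, proteases that enter through it and start cell death. In tumours, killer lymphocytes often come with monocytes, with macrophages that break down arginine, and with inhibitory receptors on the T cells.

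Library totals were 15.58 to 23.43 (median 19.53), in units of 1000000 counts, in the 6 libraries. Right 3 and left 1 stood apart from their groups. Their mean Spearman correlations with the other libraries of their group were 0.963 and 0.968, against 0.978 to 0.983 for the other 4. Right 3 had relatively more counts in genes with long transcripts (Spearman correlation of a gene's deviation with its transcript length, 0.37) and left 1 in genes with short ones (-0.45). The correlations were -0.29 and -0.41 in right 1 and 2 and -0.17 and -0.06 in left 2 and 3. Skeletal muscle genes also moved with side: the 40 tested markers summed to 2780, 3500 and 5500 CPM on the right and 2050, 1710 and 1080 CPM on the left. Their defining fibre genes Acta1, Ckm and Myh4 were present in all 6 libraries. Keratinocyte markers were near the floor, with 0 counts of Krt5 and Krt1 and 1 count of Krt14 in all. Melanocyte genes were abundant in all 6 libraries, as the labelled tissue would hold. Summed over 24 genes, they had 47000, 47700 and 39500 CPM on the right and 51700, 49100 and 52000 CPM on the left. In bulk tissue, more cells of a type and more RNA per cell cannot be told apart.

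**Figure D1:**
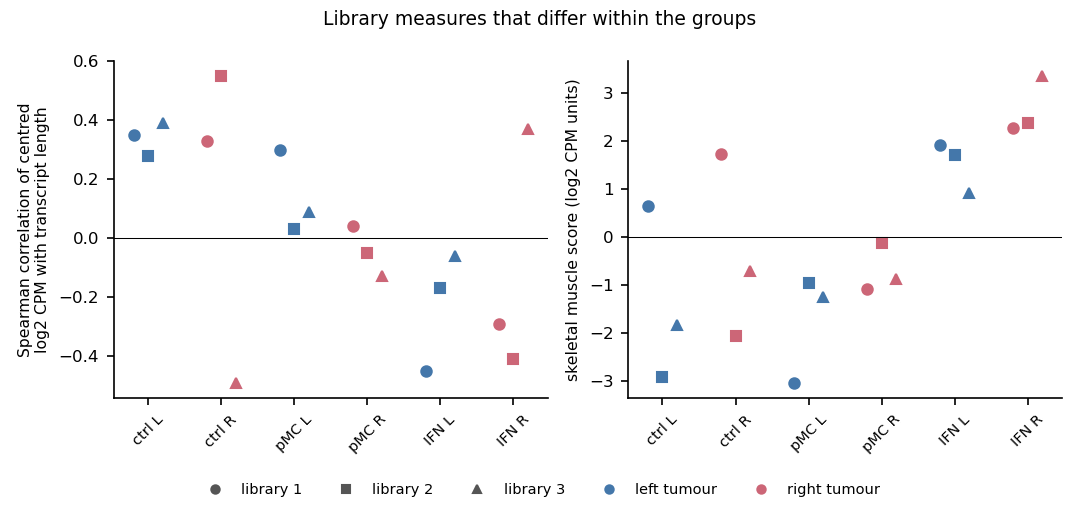
Measures of the 18 libraries by group (ctrl, control; L, left; R, right; IFN, IFN-alpha-pMC), with 1 point per library and the symbol giving its number. Left panel, Spearman correlation (no unit) of each gene's log2 CPM deviation from the mean of all libraries with transcript length; right panel, skeletal muscle score in log2 CPM units. Among the IFN-alpha-pMC libraries, right 3 is at 0.37 and left 1 at -0.45 for length, and the right muscle scores (2.26, 2.38 and 3.35) lie above the left ones (1.91, 1.71 and 0.92).

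The genes higher on the right included many of T cells, killer lymphocytes and monocytes. Of 14849 genes tested, 369 were higher on the right (2.49%) and 6 lower (0.0404%), 375 in all (2.53%). These shares are the background for the list counts below. The higher genes had a median difference of 1.33, with 302 above 1 and 56 above 2, while the median over all genes tested was 0.01. All right libraries lay above all left ones for 10.5% of the genes tested, and below them for 3.58%. Without right 1, 2 or 3 the count of called genes was 360, 222 or 155, and without left 1, 2 or 3 it was 141, 159 or 233. With right 3 and left 1 both left out it was 93 (92 higher), of which 87 were among the 375. A covariate for the muscle score gave 342 called genes, of which 305 were among the 375. The same contrast gave 0 called genes in control mice (116 at an unadjusted p under 0.05, or 0.781%) and 0 in pMC mice (310, or 2.09%), and DESeq2 gave 0 in both. In IFN-alpha-pMC mice the unadjusted count was 1726 (11.6%). The control right libraries differed among themselves, with mean Spearman correlations within their group of 0.968, 0.958 and 0.945. Their correlations with transcript length were 0.33, 0.55 and -0.49. The 0 in control mice therefore does not show that their sides were alike.

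**Figure D2:**
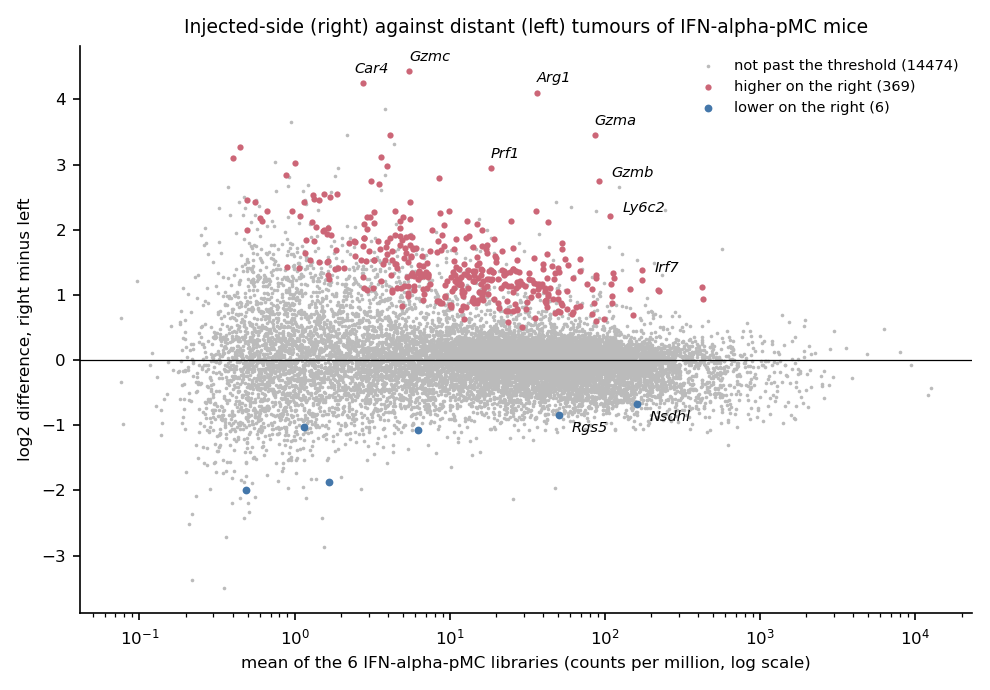
Log2 difference (right minus left) of each of the 14849 genes tested against its mean level in the 6 IFN-alpha-pMC libraries (CPM, log axis), with 1 point per gene. Red points are the 369 genes called higher on the right and blue points the 6 called lower; granzymes, Prf1 and Arg1 have some of the largest differences.

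The largest differences belonged to killer lymphocyte genes, with several enzymes and receptors beside them. Gzmc (ENSMUSG00000079186), a granzyme, stood at 10.4, 14 and 6.95 CPM on the right and 0.766, 0.295 and 0.435 CPM on the left (4.43 ± 0.43, adjusted p = 0.000205). Gzma (ENSMUSG00000023132), the tryptase among the granzymes, had 144, 233 and 97.5 CPM against 22.4, 13.2 and 8.1 CPM (3.45 ± 0.45, adjusted p = 0.000904). Gzmb (ENSMUSG00000015437), which cleaves caspase substrates, had 151, 186 and 139 CPM against 33.8, 20.3 and 17.2 CPM (2.74 ± 0.39, adjusted p = 0.00132). In each of these the lowest right library was several-fold above the highest left library. Prf1 (ENSMUSG00000037202), perforin, reached 25.6, 33.2 and 39.3 CPM against 3.14, 5.26 and 4.29 CPM (2.94 ± 0.34, adjusted p = 0.000788). These 4 genes were called with any of the 6 libraries left out. The other 12 libraries held 0 to 0.161 CPM of Gzmc, 1.55 to 5.94 of Gzma, 1.46 to 7.87 of Gzmb and 0.64 to 2.44 of Prf1, under all 3 left values of each gene. Granzymes c to g lie in families of similar sequence and only uniquely aligned pairs were counted, so reads could be split or lost among them.

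Of the cytotoxic effector list, 11 of 22 tested genes were higher (median 1.36, against 0.01 over all genes and 2.49% called higher). Klrg1 (ENSMUSG00000030114), an inhibitory receptor of differentiated killer cells, had 5.49, 8.5 and 5.53 CPM against 0.842, 0.492 and 0.924 CPM (3.11 ± 0.53, adjusted p = 0.00435). Tbx21 (ENSMUSG00000001444), which encodes the transcription factor T-bet, had 5.35, 8.14 and 8.57 CPM against 0.919, 1.72 and 1.79 CPM (2.29 ± 0.32, adjusted p = 0.00129). Nkg7, a granule membrane protein, differed by 1.72 ± 0.35 (adjusted p = 0.0125), a call that ended without right 2, left 2 or left 3 (adjusted p = 0.059, 0.063 and 0.0684). Ifng, the cytokine of activated T and NK cells, had 8.19, 6.58 and 6.52 CPM against 3.06, 3.78 and 2.39 CPM, without overlap, but did not pass (1.2 ± 0.36, adjusted p = 0.106). Members of this list too low to be tested leaned the same way in raw counts: Gzme had 27 against 7, Gzmf 77 against 5 and Gzmg 35 against 0. The list count was 10, 7 and 9 without right 1, 2 and 3, 11, 7 and 7 without left 1, 2 and 3, and 10 without right 3 and left 1 together.

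T cell genes were higher on the right as a broad group. All 31 tested T cell markers had a difference above 0 and 23 were called higher (median 1.67, lowest 0.22). The receptor complex was represented by Cd3g (ENSMUSG00000002033), with 28, 37 and 26.1 CPM against 9.49, 9.29 and 6.47 CPM (1.85 ± 0.27, adjusted p = 0.00158), and by Cd3e (ENSMUSG00000032093), with 12.6, 17.8 and 14.2 CPM against 3.44, 3.34 and 3.8 CPM (2.07 ± 0.38, adjusted p = 0.00695). Zap70 (ENSMUSG00000026117), the kinase that carries the receptor signal, had 8.14, 10.8 and 9.32 CPM against 2.22, 1.72 and 1.36 CPM (2.42 ± 0.33, adjusted p = 0.00106). Cd28 (ENSMUSG00000026012), the main costimulatory receptor, had 13.4, 16.9 and 12.6 CPM against 3.14, 3.15 and 2.66 CPM (2.26 ± 0.31, adjusted p = 0.00118). No left library reached a right one for any of these 4 genes, and their calls held with each of the 6 libraries left out. The Cd3e call ended without right 3 and left 1 together (adjusted p = 0.0748, or 0.0833 with length and GC correction).

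Both T cell lineages were present. Cd8b1 (ENSMUSG00000053044), a chain of the CD8 coreceptor, had 21.7, 26.3 and 24.4 CPM against 4.9, 7.23 and 4.95 CPM (2.08 ± 0.32, adjusted p = 0.00206). Its partner Cd8a had 26.3, 31.6 and 31.6 CPM against 11.5, 10.6 and 8.42 CPM (1.56 ± 0.36, adjusted p = 0.0288). Cd4, the coreceptor of helper cells that macrophages may also carry, had 9.21, 13.6 and 11.5 CPM against 2.37, 4.87 and 3.42 CPM (1.67 ± 0.35, adjusted p = 0.0154). The Cd8b1 call held with each of the 6 libraries left out, but not without right 3 and left 1 together with length and GC correction (adjusted p = 0.0659). That of Cd8a ended without left 1, 2 or 3 or right 2 or 3 (adjusted p = 0.0931, 0.106, 0.126, 0.0861 and 0.115), and that of Cd4 without left 1 or 3 or right 2 or 3 (adjusted p = 0.0993, 0.0684, 0.0646 and 0.0633). Ccr7, which guides naive T cells and mature dendritic cells to lymph nodes, was level (2.61, 2.69 and 2.88 CPM against 1.76, 2.46 and 2.77 CPM, 0.22 ± 0.35, adjusted p = 0.829). Over the T cell markers the count of called genes was 22, 14 and 16 without right 1, 2 and 3, 14, 12 and 14 without left 1, 2 and 3, and 12 without right 3 and left 1 together. With the muscle covariate it was 23.

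NK cell genes were in part higher on the right. All 22 tested NK cell markers had a difference above 0 (median 1.35, lowest 0.93), right libraries lay above every left library for 16 (10.5% of all genes), and 6 were called higher. With length and GC correction 16 of the 22 were called. Il2rb (ENSMUSG00000068227), the interleukin 2 and 15 receptor chain that memory T cells share, had 42.2, 60.9 and 76.7 CPM against 9.57, 13.1 and 14 CPM (2.29 ± 0.34, adjusted p = 0.00165). Klra7, a receptor for class I molecules, had 6.19, 9.4 and 5.57 CPM against 1.07, 1.03 and 0.598 CPM (2.97 ± 0.56, adjusted p = 0.00864), a call that ended without right 3 and left 1 together (adjusted p = 0.0565). Klrb1c, which encodes the marker NK1.1, had 8.47, 11.8 and 6.56 CPM against 3.44, 2.36 and 1.47 CPM (1.89 ± 0.39, adjusted p = 0.0145), and this call ended without right 2, left 2 or left 3 (adjusted p = 0.0696, 0.074 and 0.0782). Ncr1, the activating receptor most specific to NK cells, lay just outside the threshold (3.72, 5.39 and 3.08 CPM against 1.53, 2.11 and 0.924 CPM, 1.4 ± 0.36, adjusted p = 0.052). The Klra genes are near-identical copies whose reads cannot always be assigned. The list count was 4, 2 and 4 without right 1, 2 and 3, 4, 2 and 2 without left 1, 2 and 3, and 2 without right 3 and left 1 together.

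Inhibitory receptors of activated T cells were part of the difference, whereas the regulatory T cell factor Foxp3 was not called. Of the checkpoint and regulatory T cell list, 9 of 25 tested genes were higher (median 1.16), against 2.49% of all genes. A difference above 0 was found for 24. Lag3 (ENSMUSG00000030124), an inhibitory receptor that binds class II molecules, had 7.96, 9.64 and 12.4 CPM against 3.75, 3.05 and 3.21 CPM (1.59 ± 0.25, adjusted p = 0.00233), a call kept with each of the 6 libraries left out but not without right 3 and left 1 together with length and GC correction (adjusted p = 0.0534). Tigit (ENSMUSG00000071552), which competes with an activating receptor for its ligand, had 4.75, 5.75 and 5.73 CPM against 0.919, 0.934 and 1.47 CPM (2.27 ± 0.45, adjusted p = 0.0113), a call that ended without left 1, left 2 or right 3 (adjusted p = 0.0716, 0.0696 and 0.0507). Icos, a costimulatory receptor, differed by 1.89 ± 0.38 (adjusted p = 0.012), and not past the threshold without left 1 or right 3 (adjusted p = 0.0792 and 0.0608). Il2ra (1.54, adjusted p = 0.0254) and Tnfrsf4 (1.47, adjusted p = 0.0143) of this list were also called. The Il2ra call ended without left 1, 2 or 3 or right 2 or 3 (adjusted p = 0.119, 0.103, 0.0872, 0.059 and 0.158). That of Tnfrsf4 ended without left 2 or 3 or right 1 or 2 (adjusted p = 0.0688, 0.0709, 0.0502 and 0.0566). Pdcd1, which encodes PD-1, had 18.8, 25.4 and 15.8 CPM against 12.2, 5.75 and 5.81 CPM. That difference of 1.35 ± 0.5 did not pass (adjusted p = 0.243). Cd274, its ligand PD-L1, was at 245, 231 and 230 CPM against 131, 181 and 164 CPM (0.57 ± 0.26, adjusted p = 0.417), while the other 12 libraries held 35.9 to 88.4 CPM. Foxp3, the defining factor of regulatory T cells, had 1.12, 1.02 and 2.41 CPM against 1.15, 0.934 and 0.815 CPM (0.67 ± 0.55, adjusted p = 0.625, 95% interval -0.48 to 1.83), so the groups overlapped. The list count was 7, 5 and 3 without right 1, 2 and 3, 2, 2 and 4 without left 1, 2 and 3, and 2 without right 3 and left 1 together.

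**Figure D3:**
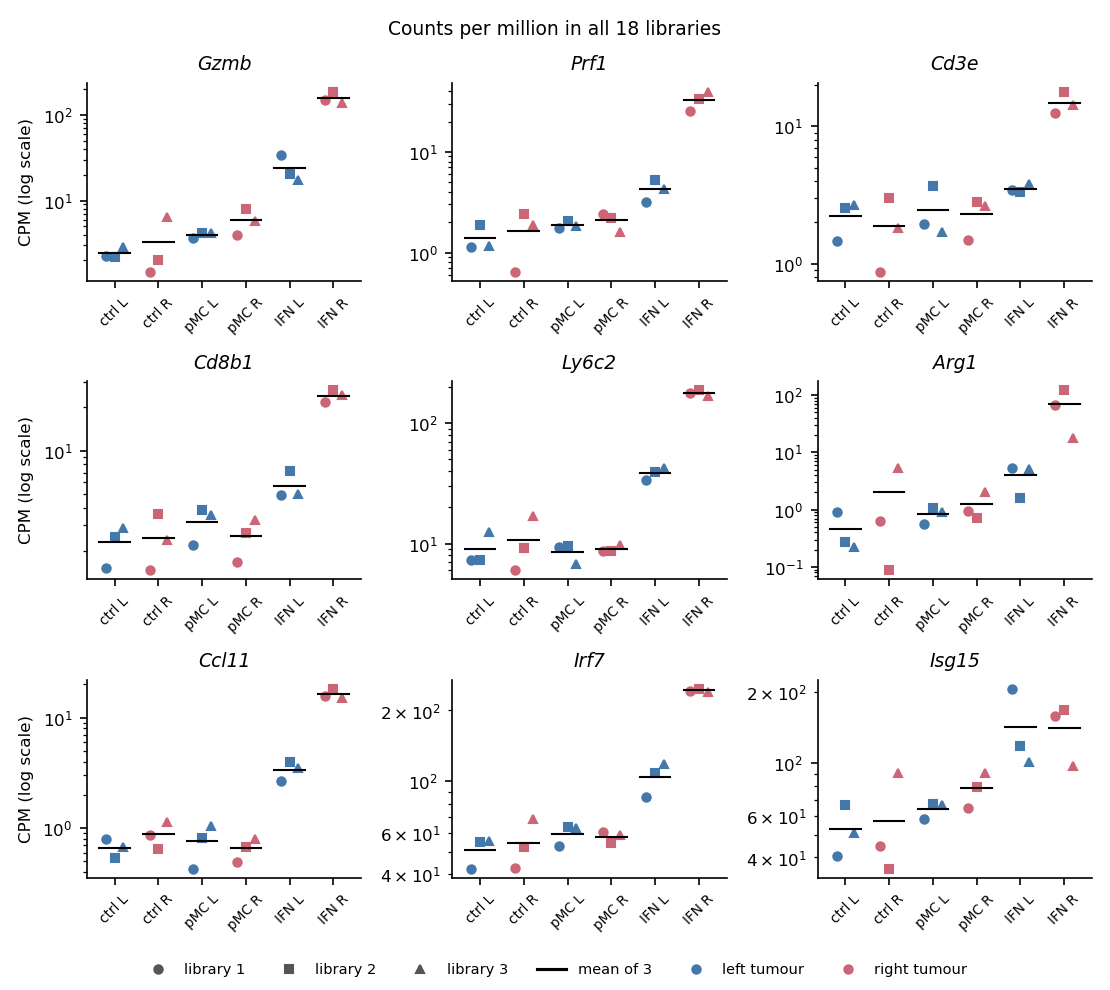
CPM (log axis) of 9 genes in all 18 libraries, with 1 point per library (symbol, its number) and a bar at the mean of the 3 libraries of a group. For Gzmb, Prf1, Cd3e, Cd8b1, Ly6c2, Arg1, Ccl11 and Irf7 all right IFN-alpha-pMC libraries lie above all left ones, while for Isg15 (158, 168 and 97 CPM against 206, 118 and 101 CPM) they overlap.

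Monocyte genes were higher on the right as well. Of the monocyte and macrophage list, 13 of 36 tested genes were higher (median 0.86), against 2.49% of all genes. Ly6c2 (ENSMUSG00000022584), the surface marker of inflammatory monocytes that memory CD8 T cells also carry, had 177, 187 and 167 CPM against 33.7, 38.9 and 42 CPM (2.21 ± 0.29, adjusted p = 0.000904). Reads of Ly6c2 and its near-copy Ly6c1 may be split. Cd68 (ENSMUSG00000018774), a lysosomal protein of macrophages, had 155, 155 and 178 CPM against 45.7, 67.8 and 79.5 CPM (1.34 ± 0.2, adjusted p = 0.00158). Spi1, which encodes the myeloid transcription factor PU.1, had 49.8, 48.5 and 52.3 CPM against 20.3, 25.6 and 24.8 CPM (1.09 ± 0.16, adjusted p = 0.00158). The calls of these 3 genes held with each of the 6 libraries left out. Without right 3 and left 1 together with length and GC correction, those of Cd68 and Spi1 ended (adjusted p = 0.0506 and 0.102). Ccr2, the receptor that brings monocytes out of the marrow, had 77.6, 83.2 and 59.3 CPM against 30.9, 29.9 and 25.8 CPM (1.35 ± 0.32, adjusted p = 0.0288). Leaving out any 1 of the 6 libraries ended the Ccr2 call (adjusted p = 0.0532 to 0.117). The list count was 11, 10 and 5 without right 1, 2 and 3, 4, 6 and 9 without left 1, 2 and 3, and 5 without right 3 and left 1 together.

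Resident macrophage genes gave few calls. In the tissue macrophage and complement C1q list (median 0.62), 1 of 18 tested genes was higher, against 2.49% of all genes. It was Maf (0.7 ± 0.15, adjusted p = 0.0154), a transcription factor of macrophages. With length and GC correction 3 were called. All right libraries lay above all left ones for 7 (10.5% of all genes), and 9 had an unadjusted p under 0.05 (11.6% of all genes). The Maf call ended without left 1, 2 or 3 or right 3 (adjusted p = 0.0914, 0.068, 0.0546 and 0.136). C1qa, a subunit of complement C1q, had 335, 350 and 312 CPM against 211, 212 and 202 CPM (0.67 ± 0.23, adjusted p = 0.191). The groups did not overlap for C1qa, yet the difference did not pass. Cd163, a scavenger receptor, was low on both sides (0.512, 1.56 and 0.197 CPM against 0.842, 0.59 and 0.761 CPM). Apoe, a lipid carrier that tumour cells may also make, was alike (1450, 1490 and 1130 CPM against 1210, 1260 and 1280 CPM, 0.12 ± 0.16, adjusted p = 0.781).

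Genes of arginine metabolism were higher on the right, with wide scatter between libraries. Of the arginine and alternative macrophage activation list, 7 of 15 tested genes were higher (median 1.3), against 2.49% of all genes. Arg1 (ENSMUSG00000019987), arginase 1, which splits arginine that T cells need, had 67.3, 121 and 17.8 CPM against 5.36, 1.57 and 5.22 CPM (4.1 ± 0.87, adjusted p = 0.0155, 95% interval 2.26 to 5.93). Slc7a2, a transporter that imports arginine, had 2.65, 5.27 and 3.63 CPM against 0.995, 1.13 and 1.14 CPM (1.81 ± 0.39, adjusted p = 0.0186). Nos2, which turns arginine into nitric oxide, had 4.84, 4.97 and 8.02 CPM against 1.53, 3 and 2.61 CPM (1.31 ± 0.34, adjusted p = 0.0487). Right 2 was highest for Arg1 and right 3 for Nos2. Chil3 (ENSMUSG00000040809), a chitinase-like protein, had 10.4, 27.1 and 7.15 CPM against 1.99, 1.72 and 2.66 CPM (2.8 ± 0.53, adjusted p = 0.00882). Il4ra, the interleukin 4 receptor chain, differed by 1.21 ± 0.22 (adjusted p = 0.00606). Retnla, a secreted product of alternatively activated macrophages, rested on right 2 (1.49, 19.7 and 0.513 CPM against 0.153, 0.393 and 0.87 CPM) and did not pass (3.85 ± 1.14, adjusted p = 0.102). Mrc1, the mannose receptor, was at 0.73 ± 0.22 (adjusted p = 0.112). The Il4ra call held with each of the 6 libraries left out, but ended with the compared groups alone (adjusted p = 0.0708) and without right 3 and left 1 together (adjusted p = 0.0878, or 0.14 with length and GC correction). Those of Arg1 (adjusted p = 0.0706, 0.0772, 0.0939 and 0.0576 without left 1, right 2, left 2 and left 3) and Chil3 (0.0518 and 0.0595 without left 1 and left 2) did not. The Nos2 call ended without any 1 of the 6 libraries (adjusted p = 0.0558 to 0.3), and the Slc7a2 call without left 1, 2 or 3 or right 2 or 3 (adjusted p = 0.0878, 0.0839, 0.0702, 0.094 and 0.0584). The list count was 7, 3 and 5 without right 1, 2 and 3, 1, 2 and 4 without left 1, 2 and 3, and 2 without right 3 and left 1 together.

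Among leukocyte chemokines the smallest adjusted p belonged to Ccl11, an eosinophil attractant. Ccl11 (ENSMUSG00000020676) had 15.8, 18.3 and 15.1 CPM against 2.68, 3.93 and 3.48 CPM (2.28 ± 0.27, adjusted p = 0.000788), and the other 12 libraries held 0.43 to 1.13 CPM. Ccl5 (ENSMUSG00000035042), which T and NK cells release, had 108, 125 and 88.6 CPM against 41.6, 53 and 48.1 CPM (1.17 ± 0.19, adjusted p = 0.00255). Both calls held with each of the 6 libraries left out, and that of Ccl5 ended without right 3 and left 1 together with length and GC correction (adjusted p = 0.0951). Ccl3 and Ccl4, which attract leukocytes, differed by 1.38 ± 0.3 (adjusted p = 0.0194) and 1.35 ± 0.28 (adjusted p = 0.0133). These were the 4 called of 20 tested leukocyte chemokines (median 0.74), against 2.49% of all genes called higher. Ccl2, the main monocyte attractant, had 94.7, 119 and 56.6 CPM against 45.3, 31.8 and 33.9 CPM without passing (1.29 ± 0.38, adjusted p = 0.0957). Cxcl9, a T cell attractant induced by interferon-gamma, did not separate the sides at all (311, 271 and 235 CPM against 209, 392 and 264 CPM, -0.08 ± 0.23, 95% interval -0.57 to 0.4). The Ccl4 call ended without left 1, 2 or 3 or right 2 (adjusted p = 0.0524, 0.063, 0.0659 and 0.064), and the Ccl3 call without left 1, 2 or 3 or right 2 or 3 (adjusted p = 0.0886, 0.106, 0.064, 0.0547 and 0.1).

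In the list of inflammatory cytokines and NF-kappa-B feedback, 3 of 27 tested genes were higher (median 0.57). Il1rn (ENSMUSG00000026981), the natural antagonist of the interleukin 1 receptor, had 25.1, 25 and 27.1 CPM against 4.21, 6.05 and 8.91 CPM (2 ± 0.37, adjusted p = 0.00673). That call held with each of the 6 libraries left out, but not without right 3 and left 1 together (adjusted p = 0.0984). Tnf had 10, 7.36 and 7.98 CPM against 2.45, 3.59 and 2.39 CPM (1.58 ± 0.32, adjusted p = 0.0119) and lost its call without left 1 or left 3 (adjusted p = 0.0678 and 0.0639). Il1b and Il6, cytokines of acute inflammation, were low and mixed (Il1b 2.19, 8.5 and 1.78 CPM against 1.68, 2.06 and 4.29 CPM; Il6 at most 1.02 CPM).

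Some interferon response genes were higher on the right. In the type I interferon response list 46 of 51 tested genes had a difference above 0, with a median of 0.3. Right libraries lay above every left library for 22 (10.5% of all genes), 20 had an unadjusted p under 0.05 (11.6% of all genes) and 6 were called higher: Irf7, Ifi213, Ifi209, Slfn1, Oas3 and Oasl1. Irf7 (ENSMUSG00000025498), the factor that amplifies interferon production, had 243, 248 and 241 CPM against 85.5, 108 and 118 CPM (1.23 ± 0.18, adjusted p = 0.00148). Ifi213 (ENSMUSG00000073491), of the DNA-sensing Ifi200 family, had 23, 22.9 and 23 CPM against 10.3, 10.9 and 8.64 CPM (1.21 ± 0.21, adjusted p = 0.00516). Slfn1, a growth regulator of T cells, had 43.1, 45.7 and 36.7 CPM against 22.7, 19 and 15.3 CPM (1.14 ± 0.22, adjusted p = 0.00893). These 3 calls held with each of the 6 libraries left out. The Ifi213 call ended without right 3 and left 1 together (adjusted p = 0.0539), and the Irf7 call when length and GC correction was added to that (adjusted p = 0.0651). Oas3 (ENSMUSG00000032661), an antiviral 2-5A synthetase, had 35.9, 40.4 and 75.5 CPM against 17.5, 26.2 and 24.2 CPM (1.16 ± 0.26, adjusted p = 0.0235). Its call ended without left 1, 2 or 3 or right 3 (adjusted p = 0.165, 0.0603, 0.0684 and 0.212). Right 3, the highest, was also the library with relatively more counts in long transcripts. The Oas3 call was kept with length and GC correction of all libraries. It ended with the compared groups alone (adjusted p = 0.164) and without right 3 and left 1 together (adjusted p = 0.368, or 0.182 with length and GC correction). The cause was not tested. Ifi209 (1.24 ± 0.26, adjusted p = 0.0145), of the same family as Ifi213, lost its call without right 2, left 2 or left 3 (adjusted p = 0.0578, 0.0721 and 0.0746). Oasl1 (0.91 ± 0.21, adjusted p = 0.0292) lost it without left 1, left 2, right 2 or right 3 (adjusted p = 0.144, 0.063, 0.0558 and 0.174).

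The standard markers of interferon exposure were not called. Isg15 (ENSMUSG00000035692), a ubiquitin-like protein, had 158, 168 and 97 CPM against 206, 118 and 101 CPM (-0.01 ± 0.33, adjusted p = 0.995, 95% interval -0.7 to 0.69). Ifit1 (ENSMUSG00000034459), which binds viral RNA caps, had 236, 215 and 175 CPM against 176, 199 and 174 CPM (0.19 ± 0.18, adjusted p = 0.694, 95% interval -0.2 to 0.58). Bst2, also known as tetherin, was at 0.04 ± 0.2 (adjusted p = 0.945). The groups overlapped for all 3 of these genes. Their left values were already above the other 12 libraries, which held 35.9 to 91.1 CPM of Isg15, 68.9 to 120 CPM of Ifit1 and 192 to 306 CPM of Bst2. Mx1, an antiviral GTPase, separated the sides (28, 22.6 and 21.8 CPM against 15.8, 14.9 and 12.7 CPM) and stayed just outside the threshold (0.74 ± 0.2, adjusted p = 0.0684), as did Rsad2, or viperin (0.8 ± 0.22, adjusted p = 0.0665). The count of the type I interferon response list was 6, 4 and 4 without right 1, 2 and 3, 4, 3 and 4 without left 1, 2 and 3, and 2 without right 3 and left 1 together. It was 11 with DESeq2 and 11 with the muscle covariate.

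**Figure D4:**
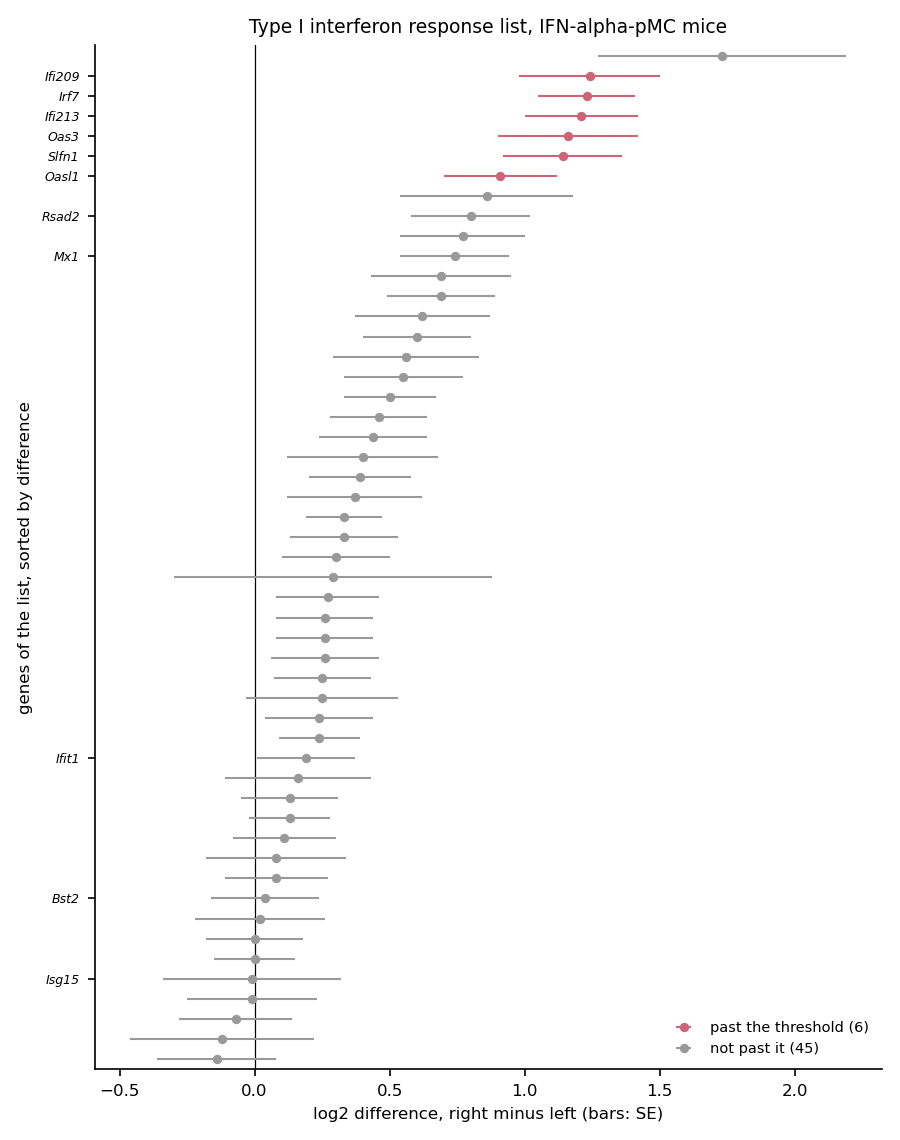
Log2 difference (right minus left, bars ± SE) of the 51 tested genes of the type I interferon response list, sorted by size, with names for the genes described in the text. The 6 called genes (red) lie between 0.91 and 1.24, and Isg15 and Bst2 lie at -0.01 and 0.04.

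Promoter sequences were examined for the letters of the interferon-stimulated response element, a DNA site through which interferon-induced genes are switched on, to see whether called and uncalled members of this list differed in them. The pattern searched was GAAA, any 2 bases, then GAAA, on either strand, in the 250 bases before and 50 after each gene's start (RefSeq, GRCm38.p6). It was present for 3.99% of the 27025 genes of that table. Of the 51 tested members 38 had a promoter in it and 19 of these held the pattern (50%). It was found for 2 of the 6 called members and for 17 of 32 uncalled ones (53.1%). Ifi213 and Oas3, called higher, and Isg15 and Ifit1, not called, are printed below in the direction of the gene, with the pattern in capitals (on the reverse strand in Ifit1). Overlapping matches run together in Isg15. They lie at chr1:173599223-173599522 (minus strand), chr5:120777610-120777909 (minus), chr4:156200769-156201068 (minus) and chr19:34640639-34640938 (plus).
Ifi213: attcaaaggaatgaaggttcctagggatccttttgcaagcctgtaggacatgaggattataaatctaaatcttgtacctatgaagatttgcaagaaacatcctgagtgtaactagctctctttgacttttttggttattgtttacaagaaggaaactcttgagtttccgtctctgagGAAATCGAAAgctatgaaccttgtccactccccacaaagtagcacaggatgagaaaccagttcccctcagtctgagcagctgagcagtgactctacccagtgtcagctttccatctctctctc
Oas3: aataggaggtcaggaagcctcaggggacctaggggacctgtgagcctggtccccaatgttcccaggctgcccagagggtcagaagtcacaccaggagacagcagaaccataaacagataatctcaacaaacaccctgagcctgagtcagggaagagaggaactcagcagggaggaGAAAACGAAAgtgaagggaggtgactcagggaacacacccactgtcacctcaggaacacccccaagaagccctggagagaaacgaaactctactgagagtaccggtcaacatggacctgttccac
Isg15: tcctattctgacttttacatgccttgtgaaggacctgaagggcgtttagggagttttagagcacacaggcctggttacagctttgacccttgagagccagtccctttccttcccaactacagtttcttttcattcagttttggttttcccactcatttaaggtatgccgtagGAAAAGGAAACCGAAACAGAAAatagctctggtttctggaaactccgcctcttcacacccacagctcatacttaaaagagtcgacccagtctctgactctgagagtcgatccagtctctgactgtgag
Ifit1: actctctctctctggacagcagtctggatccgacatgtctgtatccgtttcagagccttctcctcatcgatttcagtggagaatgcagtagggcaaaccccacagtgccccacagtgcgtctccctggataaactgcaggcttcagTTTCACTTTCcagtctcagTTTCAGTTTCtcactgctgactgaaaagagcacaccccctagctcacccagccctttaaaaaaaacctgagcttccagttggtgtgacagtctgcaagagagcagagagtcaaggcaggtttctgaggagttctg
The same letters thus stand in promoters of called and of uncalled genes. A match is a description of the sequence, and no binding was measured.

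Few interferon genes were detected apart from Ifng (above). Of 21 interferon genes and receptors listed, 14 matched an identifier and the others were not analysed here. The murine alpha genes Ifna2, Ifna4, Ifna12 and Ifna13 had 0 counts in all 6 libraries, which allows up to 0.193 CPM in the shallowest (3 counts). Ifnb1 had 2 counts on the right and 3 on the left. Ifngr1, a chain of the interferon-gamma receptor, was the 1 called of 5 tested interferon genes and receptors (0.72 ± 0.18, adjusted p = 0.0343). Right 1 and 2 and left 1, 2 and 3 each ended that call when left out (adjusted p = 0.1, 0.148, 0.122, 0.0614 and 0.127). Of 27 tested interferon-gamma response genes 4 were higher (median 0.37), against 2.49% of all genes. They were Icam1, an adhesion molecule (1.21 ± 0.23, adjusted p = 0.00959), Socs1, a brake on cytokine signals (1.03 ± 0.25, adjusted p = 0.0347), Irf8, a factor of monocytes and dendritic cells (0.93 ± 0.2, adjusted p = 0.0201), and Nos2. Irf1 had 318, 302 and 278 CPM against 225, 315 and 228 CPM (0.22 ± 0.17, adjusted p = 0.603) and Gbp2, a guanylate-binding protein, 1130, 1200 and 1060 CPM against 730, 1080 and 817 CPM (0.37 ± 0.21, adjusted p = 0.517). The sides overlapped for both. Without left 1 or right 3 the Icam1 call ended (adjusted p = 0.0652 and 0.0689). The Irf8 call ended without left 1, 2 or 3 or right 2 or 3 (adjusted p = 0.0913, 0.054, 0.0862, 0.0673 and 0.0653), and the Socs1 call without left 1 or 3 or right 1, 2 or 3 (adjusted p = 0.16, 0.0958, 0.0747, 0.111 and 0.106). The interferon-gamma response count was 2, 1 and 0 without right 1, 2 and 3, 0, 2 and 1 without left 1, 2 and 3, and 0 without right 3 and left 1 together.

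The class I presentation genes that were higher on the right were nonclassical. Of the MHC class I presentation list 4 of 23 tested genes were higher (median 0.24), H2-Q4, H2-Q6, H2-Q7 and H2-T24, which are all nonclassical class I genes. H2-Q6 (ENSMUSG00000073409) had 41.1, 48.3 and 68.2 CPM against 16.2, 18.8 and 18.4 CPM (1.56 ± 0.2, adjusted p = 0.000904), and H2-Q4 had 36.7, 34.2 and 49.8 CPM against 12.7, 17.7 and 16.8 CPM (1.35 ± 0.2, adjusted p = 0.00158). The calls of H2-Q6 and H2-Q4 held with each of the 6 libraries left out, and that of H2-Q4 ended without right 3 and left 1 together with length and GC correction (adjusted p = 0.0525). H2-Q7 (1.11 ± 0.22, adjusted p = 0.0118) lost its call without right 2, left 2 or left 3 (adjusted p = 0.0518, 0.0587 and 0.0595). H2-T24 (0.77 ± 0.19, adjusted p = 0.0421) lost it without left 1, 2 or 3 or right 1 or 3 (adjusted p = 0.0796, 0.175, 0.158, 0.103 and 0.301). H2-Q genes are near-identical copies, so their reads may be shared. The classical molecule H2-K1 had 1540, 1830 and 1800 CPM against 793, 1180 and 1230 CPM (0.69 ± 0.23, adjusted p = 0.162). B2m, the light chain common to all class I molecules, had 7590, 7550 and 6860 CPM against 3650, 6030 and 6150 CPM (0.47 ± 0.23, adjusted p = 0.437). Every right value of H2-K1 and B2m was above every left value, and left 1 was the lowest. In the MHC class II presentation list Ctss, the protease that trims the invariant chain, was the 1 called of 13 tested genes (1.12 ± 0.24, adjusted p = 0.0155). It lost the call without left 1, right 2 or right 3 (adjusted p = 0.0878, 0.052 and 0.0632). H2-Ab1, a class II chain, was level (335, 395 and 285 CPM against 401, 300 and 261 CPM, 0.08 ± 0.38, adjusted p = 0.947). Cd74 differed by 0.57 without passing (adjusted p = 0.436). Of the 13 class II genes 10 had a difference above 0 (median 0.29). Summed over the 13, levels were 2780, 3400 and 3040 CPM on the right and 2090, 2410 and 2220 CPM on the left.

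Dendritic cell genes gave few calls, and their differences varied by list. Of the cDC1 and other dendritic cell list (median 0.34) 1 of 18 tested genes was higher, Irf8 (above), and DESeq2 called 4. An unadjusted p under 0.05 was found for 6 (11.6% of all genes). Itgax differed by 1.34 without passing (adjusted p = 0.0661). Xcr1, the chemokine receptor that defines cross-presenting dendritic cells, had 5.86, 3.95 and 5.41 CPM against 4.13, 5.31 and 5.87 CPM (-0.01 ± 0.32, 95% interval -0.69 to 0.67). Clec9a, their receptor for dead cells, was at 0.05 ± 0.35 (95% interval -0.68 to 0.79). Right and left overlapped for both. Of 17 tested activated dendritic cell genes 1 was higher, Ccl5, which lymphocytes also make. In the plasmacytoid dendritic cell list 3 of 14 were higher (median 0.83): Irf7, the chemokine receptor Ccr9 (2.42 ± 0.52, adjusted p = 0.0171) and Klk1 (2.21 ± 0.54, adjusted p = 0.0367). All 14 had a difference above 0, and DESeq2 called 6. The sides did not overlap, with the right above, for 8 (10.5% of all genes). Ccr9 lost its call without left 1, left 3 or right 2 (adjusted p = 0.0904, 0.0904 and 0.0901) and Klk1 without any 1 of the 6 libraries (adjusted p = 0.0555 to 0.165). Siglech, the defining surface lectin of these cells, had 1.26, 3.05 and 1.11 CPM against 0.995, 0.688 and 0.543 CPM (1.28 ± 0.5, adjusted p = 0.287).

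Few genes of other leukocytes were called, while neutrophil genes leaned to the right. Ighm, the immunoglobulin M heavy chain, was the 1 called of 13 tested B and plasma cell genes (29.7, 28.1 and 29.9 CPM against 13.2, 13.9 and 13.6 CPM, 1.11 ± 0.23, adjusted p = 0.0137), a call that ended without left 1, 2 or 3 or right 3 (adjusted p = 0.0791, 0.0604, 0.0533 and 0.0663). Ms4a1, which encodes the B cell antigen CD20, was under 1 CPM in all 6 libraries. The 8 tested neutrophil genes had a median of 1.37. For 4 the sides did not overlap (10.5% of all genes, right above left), and 5 had an unadjusted p under 0.05 (11.6% of all genes). Of the 8, Csf3r, the receptor of granulocyte growth factor that monocytes share, was called (1.35 ± 0.28, adjusted p = 0.0143), but not without left 1, 2 or 3 or right 3 (adjusted p = 0.0841, 0.0665, 0.0555 and 0.121). S100a8 and S100a9, abundant in neutrophils, were high in right 2 (5.45 and 7.84 CPM, against at most 0.197 and 0.651 CPM in right 1 and 3) and did not pass (adjusted p = 0.32 and 0.355). Ly6g, the defining neutrophil marker, had 2 counts on the right and 0 on the left. Other neutrophil genes too low to be tested had more counts on the right, among them Mmp8 (56 against 4), Trem1 (52 against 17), Retnlg (47 against 7), Cxcr2 (32 against 4) and Lcn2 (24 against 6). No mast cell and basophil gene of 6 tested was called by edgeR or DESeq2, and 2 had an unadjusted p under 0.05 (Cpa3 1.26 ± 0.48, adjusted p = 0.274).

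Several enzymes that remodel the matrix were higher on the right. Mmp13 (ENSMUSG00000050578), a collagenase, had 15, 16.3 and 11.3 CPM against 3.83, 3.19 and 4.24 CPM (1.92 ± 0.33, adjusted p = 0.00497). Plau (ENSMUSG00000021822), the urokinase that activates plasmin, had 41, 40.9 and 39.6 CPM against 15.9, 20.5 and 18 CPM (1.16 ± 0.17, adjusted p = 0.00168). Both calls held with each of the 6 libraries left out. With Ctss and Ctsl, lysosomal cathepsins, they were the 4 called of 22 tested matrix proteases and inhibitors (median 0.53). Ctsl had 184, 229 and 154 CPM against 119, 116 and 117 CPM (0.69 ± 0.15, adjusted p = 0.0206), a call that ended without left 1, 2 or 3 or right 2 (adjusted p = 0.0517, 0.0918, 0.076 and 0.128). Tgfbi (ENSMUSG00000035493), a matrix protein induced by TGF-beta and made by macrophages among others, had 86.1, 93.2 and 129 CPM against 31.2, 34.6 and 39.5 CPM (1.55 ± 0.22, adjusted p = 0.00118), and was the 1 called of 22 tested genes in the list of TGF-beta ligands, receptors and targets. Its call also held with each of the 6 libraries left out.

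Structural cells showed few or no calls. The 37 tested fibroblast and matrix genes had a median of 0.53 and the 29 tested endothelial genes one of 0.1, with 0 called in either by edgeR or DESeq2 (3 and 2 at an unadjusted p under 0.05). Col1a1, the main collagen of fibroblasts, had 37.1, 76.3 and 184 CPM against 90.8, 49.7 and 46.7 CPM (0.67 ± 0.59, adjusted p = 0.659), and right 3 was the highest. Pecam1, an endothelial adhesion molecule, had 25.1, 27.8 and 36.8 CPM against 18.7, 25.8 and 29.4 CPM (0.28 ± 0.21, 95% interval -0.17 to 0.73). Among 14 tested pericyte and smooth muscle genes only Rgs5 (ENSMUSG00000026678), a marker of pericytes, was called, lower on the right (39.5, 37.4 and 32.1 CPM against 69.7, 72.5 and 54.3 CPM, -0.85 ± 0.18, adjusted p = 0.0143). That call ended without left 1, left 2, right 2 or right 3 (adjusted p = 0.055, 0.0753, 0.0502 and 0.0584). The list as a whole did not follow Rgs5: its median was 0.05, with 7 of 14 differences above 0. Its summed levels were 490, 561 and 681 CPM on the right and 378, 409 and 357 CPM on the left.

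Tumour cell genes were not called. Of 24 tested melanocyte genes 6 had a difference above 0, against 7673 of all 14849 genes tested. Their summed levels were lower in every right library than in any left one (above). On the melanocyte pigment and lineage list 0 of 24 tested genes passed by edgeR or DESeq2 (1 at an unadjusted p under 0.05, median -0.09), and right libraries lay below all left ones for 3 (3.58% of all genes) and above for 0 (10.5% of all genes). Tyr, tyrosinase, the first enzyme of melanin synthesis, had 2260, 2470 and 1460 CPM against 4430, 2490 and 2350 CPM (-0.58 ± 0.29, adjusted p = 0.463), with left 1 the highest. Pmel, a fibril protein of the pigment granule, had 8640, 8950 and 7740 CPM against 5960, 7710 and 9400 CPM (0.13 ± 0.17, 95% interval -0.23 to 0.5). The 36 tested cell cycle and DNA replication genes had a median of -0.09 and 0 called by edgeR or DESeq2 (2 at an unadjusted p under 0.05). They leaned lower on the right, with 9 of 36 differences above 0. Their summed levels were 3710, 3680 and 3810 CPM against 4240, 4540 and 4160 CPM. Mcm2, a subunit of the replication helicase, was level (200, 239 and 242 CPM against 164, 268 and 253 CPM, -0.01 ± 0.18, 95% interval -0.39 to 0.37).

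The few genes lower on the right included Nsdhl, from a cholesterol list that leaned lower. Nsdhl (ENSMUSG00000031349), an enzyme of cholesterol synthesis, had 137, 126 and 110 CPM against 194, 205 and 199 CPM (-0.68 ± 0.14, adjusted p = 0.0133). Enpp6 (ENSMUSG00000038173), a choline phosphodiesterase, had 4.65, 4.25 and 3.24 CPM against 8.34, 8.21 and 9.08 CPM (-1.08 ± 0.22, adjusted p = 0.0121), and Gm15754 (ENSMUSG00000082365) had 0.698, 0.718 and 0.711 CPM against 4.21, 1.67 and 2.07 CPM (-1.87 ± 0.39, adjusted p = 0.0139). Rgs4 was called at about 1 CPM (-1.03 ± 0.25, adjusted p = 0.037). Leaving out 1 library could end each of these calls: right 3 for Enpp6 (adjusted p = 0.0615), right 2, left 2 or right 3 for Nsdhl (0.0518, 0.063 and 0.0532), left 1, right 2 or right 3 for Gm15754 (0.0836, 0.052 and 0.0608), and any of the 6 for Rgs4 (0.0576 to 0.128). In the cholesterol synthesis and sterol targets list right libraries lay below all left ones for 10 of 24 tested genes (median -0.36), against 3.58% of all genes. An unadjusted p under 0.05, in either direction, was found for 15 of the 24 (11.6% of all genes). A difference above 0 was found for 4. Nsdhl alone was called lower by edgeR, while DESeq2 called 8 lower and 2 higher, and length and GC correction gave 8 lower and 1 higher. Insig1, a sterol sensor partner, had 210, 168 and 130 CPM against 308, 270 and 257 CPM (-0.72 ± 0.2, adjusted p = 0.0717). Ch25h, which makes 25-hydroxycholesterol and is an interferon target, was higher (10.1, 7.54 and 8.77 CPM against 4.98, 5.75 and 3.26 CPM, 0.92 ± 0.24, adjusted p = 0.0487), and lost its call without any 1 of the 6 libraries (adjusted p = 0.063 to 0.198).

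Muscle, stress and housekeeping lists gave the tissue context. Skeletal muscle markers had a median of 1.34 with 3 of 40 called (Casq1, Pygm and Pgam2), beside medians of 0.97 in control and 1.05 in pMC mice, so the median was above 0 in all 3 treatments, with 0 called there by edgeR (the unadjusted counts over all genes are above). With the muscle score as a covariate 342 genes were called in the whole comparison (above). Without left 1, 2 or 3, or without right 3, none of the skeletal muscle genes was called. Casq1, the calcium store of muscle fibres, had 45.8, 56 and 91.4 CPM against 17.9, 25.2 and 19.4 CPM (1.63 ± 0.42, adjusted p = 0.0495). Fat cell genes had 1 called of 10, Pparg, a nuclear receptor that macrophages also use (9.72, 7.54 and 10.4 CPM against 2.99, 4.77 and 5.16 CPM, 1.09 ± 0.22, adjusted p = 0.0125), a call that ended without left 1 or right 3 (adjusted p = 0.0716 and 0.0806). Of the nerve and Schwann cell list 0 of 12 genes were called by edgeR, 1 by DESeq2 and 2 at an unadjusted p under 0.05. Of the immediate early and tissue handling list 5 of 28 were called higher (median 0.64), among them Ier5 (1.46 ± 0.26, adjusted p = 0.00565) and Junb (0.87 ± 0.17, adjusted p = 0.00917), whose calls held with each of the 6 libraries left out. The Junb call ended with the compared groups alone (adjusted p = 0.131) and without right 3 and left 1 together (adjusted p = 0.0715, or 0.17 with length and GC correction, where that of Ier5 was 0.0506). The list count was 2 without left 1, left 2, right 2 or right 3 and 8 without left 3. Fos, the classic early response gene, was mixed (17, 33.2 and 33.4 CPM against 6.43, 19.5 and 36.5 CPM). The medians of cytosolic ribosomal proteins (-0.35, 0 of 47 called by edgeR or DESeq2, 0 at an unadjusted p under 0.05) and of nuclear-encoded oxidative phosphorylation genes (-0.45, 0 of 46 called by edgeR, 1 by DESeq2, 3 unadjusted) turned to 0.37 and 0.13 without right 3 and left 1 together. Their summed levels were highest in left 1 and lowest in right 3. Hypoxia and glycolysis, unfolded protein and ATF4 stress, circadian clock, glucocorticoid response and erythroid lists had 0 called by edgeR or DESeq2 (medians 0.13, -0.1, 0.04, 0.31 and -0.29, with 5, 2, 1, 2 and 0 genes at an unadjusted p under 0.05). Of the p53 targets and apoptosis list Plk2 alone was called of 28 (0.91 ± 0.2, adjusted p = 0.0182), and Plk2 lost the call without left 1, 2 or 3 or right 2 or 3 (adjusted p = 0.0844, 0.0713, 0.0753, 0.0673 and 0.101).

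Core pluripotency factors had no counts. Pou5f1, Sox2, Nanog and Lin28a had 0 counts in all 6 libraries (up to 0.193 CPM allowed). Of the same list Utf1 had 5 counts on the right and 0 on the left, and Tdgf1 had 5 and 1. Of 8 tested genes of the pluripotency and embryonic blood list Myb was called higher (1.91, 2.99 and 2.33 CPM against 0.689, 0.934 and 0.87 CPM, 1.51 ± 0.38, adjusted p = 0.045). Myb is also a factor of lymphocyte precursors, and the call ended without any 1 of the 6 libraries (adjusted p = 0.0502 to 0.18).

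**Figure D5:**
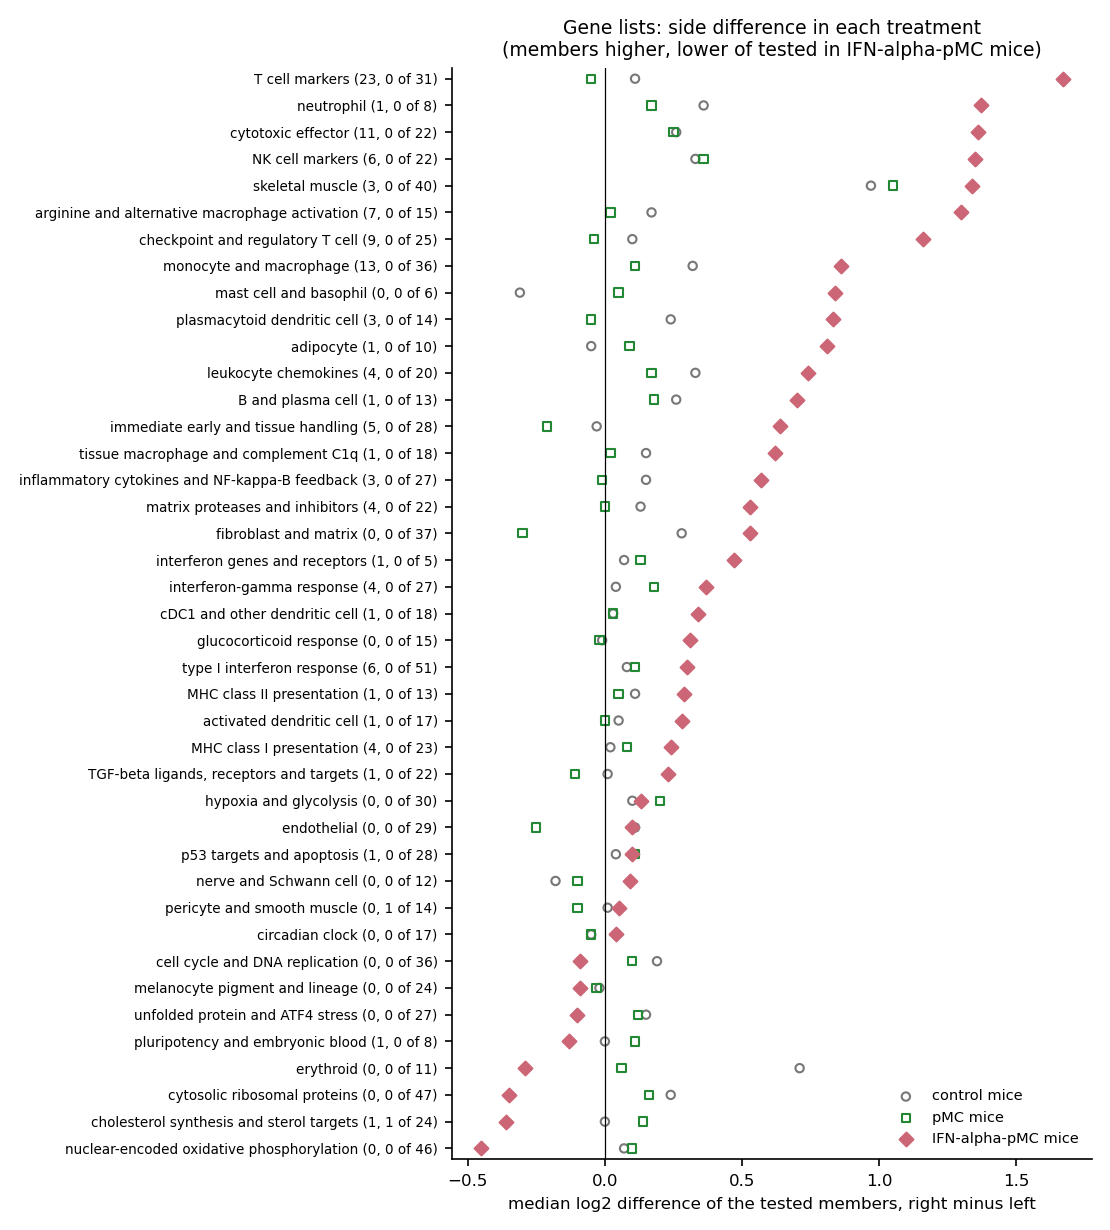
Median log2 difference (right minus left) of each gene list with at least 5 tested members, in control (circles), pMC (squares) and IFN-alpha-pMC mice (diamonds). Numbers beside each list give members called higher and lower, and tested, in IFN-alpha-pMC mice: T cell markers reach 1.67 against 0.11 and -0.05, while skeletal muscle is high in all 3 (1.34, 0.97 and 1.05).

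Some genes outside the lists also had large differences, from 2.7 to 4.25, beside 2.74 for Gzmb and 4.43 for Gzmc. Car4 (ENSMUSG00000000805), a membrane carbonic anhydrase, had 3.07, 10.7 and 2.05 CPM against 0.23, 0.295 and 0.272 CPM (4.25 ± 0.62, adjusted p = 0.00158). Lipg (ENSMUSG00000053846), endothelial lipase, had 5.86, 9.04 and 7.74 CPM against 0.306, 0.295 and 1.41 CPM (3.45 ± 0.55, adjusted p = 0.00259). Il1rl1 (ENSMUSG00000026069), the receptor of interleukin 33, had 6.7, 5.09 and 6.56 CPM against 0.689, 0.836 and 1.25 CPM (2.7 ± 0.4, adjusted p = 0.00158). Podnl1 (ENSMUSG00000012889), a small leucine-rich matrix protein, had 1.58, 1.92 and 1.9 CPM against 0.306, 0.197 and 0.163 CPM (3.03 ± 0.52, adjusted p = 0.00479). These 4 calls held with each of the 6 libraries left out and with right 3 and left 1 both left out. The other 12 libraries reached at most 0.523 CPM of Car4, 0.428 of Lipg, 0.696 of Il1rl1 and 0.502 of Podnl1.

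The distant tumours were set between the injected-side tumours and the other groups for part of the called genes. Among the 369 higher genes, all 3 left libraries lay above all 12 control and pMC libraries for 114 (30.9%), against 677 of all 14849 genes tested (4.56%). All 3 right libraries lay above those 12 for 360 (97.6%), against 10.7% of all genes. As the same right and left libraries chose the 369 genes, these shares are descriptions. The libraries also differed by treatment in the share of reads in no annotated gene. It was 4.04 to 6.12% in the IFN-alpha-pMC libraries and 6.87 to 12.21% in the 12 control and pMC libraries. That library difference cannot be told apart from treatment here. The higher genes had a median transcript length of 2985 bases (3189 over all genes tested) and a median GC content of 52% (49.7%), and 106 of them (28.7%) were on at least 1 of the lists, which held 891 of all genes tested.

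Whether the side difference belonged to IFN-alpha-pMC mice was tested as a difference of differences. Against pMC mice 58 genes (0.391% of those tested) passed, 56 with a higher side difference in IFN-alpha-pMC mice (0.377%) and 2 with a lower one (0.0135%), Gm15754 (-1.87 against 0.74) and Nsdhl (-0.68 against 0.3), whose signs were opposite. For Prf1 the side difference was 2.94 ± 0.34 in IFN-alpha-pMC and 0.15 ± 0.36 in pMC mice, which differed by 2.79 ± 0.49 (adjusted p = 0.0245). Cd28 had 2.26 ± 0.31 and -0.26 ± 0.33 (difference 2.52 ± 0.45, adjusted p = 0.0282), and Ccl11 had 2.28 ± 0.27 and -0.21 ± 0.33 (2.48 ± 0.42, adjusted p = 0.0241). Irf7 had 1.23 ± 0.18 and -0.04 ± 0.18 (1.28 ± 0.25, adjusted p = 0.0377). All 58 were also among the 375 called genes, which rest on the same IFN-alpha-pMC libraries, so the 2 results are not independent. Against 0.391% of all genes, 6 of 31 tested T cell markers were among the 58. So were 3 of 36 monocyte and macrophage genes, 2 of 22 cytotoxic effector genes and 2 of 23 class I genes. Gzmb (2.17 ± 0.55, adjusted p = 0.108) and Arg1 (3.54 ± 1.33, adjusted p = 0.335) did not pass. The count fell to 0 when IFN-alpha-pMC right 2, right 3, left 1 or left 2, or pMC right 1, right 2, left 2 or left 3 was left out, and was 36 without IFN-alpha-pMC left 3 and 85 without right 1.

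Against control mice, 0 genes passed by edgeR, with 918 (6.18%) at an unadjusted p under 0.05 and 87 by DESeq2. The side difference of Prf1 in controls was 0.25 ± 0.38 (difference 2.68 ± 0.5, adjusted p = 0.0723) and that of Cd3g was -0.25 ± 0.29 (2.1 ± 0.4, adjusted p = 0.0723). Without control right 2 or right 3 the count was 6 or 13. The control right libraries, which differed among themselves (above), enter this test. The side difference of Arg1 in control mice was 1.98 ± 1.11. The comparisons with pMC and with control mice share the IFN-alpha-pMC libraries and are not independent of each other. The side difference in IFN-alpha-pMC mice was the larger for 367 of the 369 higher genes against control and for 369 against pMC, which is a description, since those genes were chosen by that difference.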

How the data were processed

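Bulk RNA sequencing of 18 tumours was used as gene counts deposited by the authors. Per the submitters' processing notes, Trimmomatic 0.36, HISAT2 2.1.0, HTSeq 0.10.0 and the mm9 build were named; annotation release and strand setting: not given in the sources used here. The counts are uniquely aligned reads per gene, per the deposited files, whose 5 summary lines (no feature 4.04 to 6.12% in the 6 IFN-alpha-pMC libraries) entered neither library sizes nor tests. Symbols were matched for 32897 of 37620 gene identifiers.

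Counts were fitted with edgeR 4.0.16 (R 4.3.3): low-count filter filterByExpr, TMM scaling, 6 group means over 18 libraries with 12 residual degrees of freedom, quasi-likelihood F test and Benjamini-Hochberg adjustment over 14849 genes. The fit was tested on simulated counts. Alternatives were DESeq2 1.42.0, other scaling and filtering, the compared groups alone, a replicate block, a muscle covariate, a length and GC correction, and leaving out libraries. The members and the gene lists were chosen with earlier results of these data known. Genes were named by rule: the 15 largest differences per direction among called genes at 1 CPM or more (or, with few called, the 12 smallest p-values), the anchor genes of each list, and for each list its smallest p-values and called members. Members beyond these that are quoted by raw counts were too low to test. At 3 counts the floor was 0.128 to 0.193 CPM, which covers counting error only. A few results are not reported here.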

Additional observations from a re-analysis of the deposited data

Results flagged for a closer look

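The side difference (right minus left, log2) in IFN-alpha-pMC mice exceeded that in pMC mice for 18 named genes by edgeR's test of the difference. For lymphocyte genes the excess was 1.84 for Thy1, 2.7 for Zap70, 2.47 for Cd5, 2.52 for Cd28, 2.4 for Cd8b1, 1.94 for Cd3g and 2.39 for Il2rb. It was 2.79 for Prf1 and 3.19 for Gzma, the killing genes. Myeloid genes gave 1.27 for Spi1, 2.12 for Ly6c2 and 1.42 for Cd68. The remaining excesses were 2.48 for Ccl11, 1.28 for Irf7, 1.67 for H2-Q6, 1.47 for H2-Q4, 1.64 for Tgfbi and 4.31 for Podnl1. Lower signed values in IFN-alpha-pMC than in pMC mice were found for Gm15754 (-2.61) and Nsdhl (-0.98), whose side differences had opposite signs in the 2 treatments. The count of 58 genes past the threshold in this test became 0 without any 1 of IFN-alpha-pMC right 2, right 3, left 1 and left 2 and pMC right 1, right 2, left 2 and left 3.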

How the results depend on the processing

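The IFN-alpha-pMC side difference had 375 called genes. It had 190 with the compared groups alone, 586 with DESeq2, 671 with the replicate block and length and GC correction, 93 without right 3 and left 1 together (117 with length and GC correction, added after seeing the data), and 141 to 360 with 1 library left out. The difference from control mice, 0, became 7 without the low-count filter, 87 with DESeq2, 6 with length and GC correction, 38 with the block added, 1 without right 3 and left 1 with length and GC correction, and 0 to 13 with 1 library left out. The difference from pMC mice, 58, became 282 with DESeq2 (78% with a higher side difference, against 96.6%), 23 with length and GC correction, 162 with the block added, 0 without right 3 and left 1 (1 with length and GC correction) and 0 to 85 with 1 library left out. The cause was not tested. None of the 99 called named genes changed sign, while 64 of 187 uncalled ones did under at least 1 setting and were not called where they did (S100a8 reached -0.64, Rps25 0.38 and Cox4i1 0.24). Of the 99, 38 kept their call with each of the 6 libraries left out and 24 under every setting run.

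Replicate numbers were not taken to pair the samples: deviations of same-numbered right and left libraries correlated at 0.3, -0.25 and 0.44 in IFN-alpha-pMC mice. Different-numbered ones correlated at -0.46 to 0.39 there. Same-numbered libraries correlated at 0.6, 0.12 and -0.02 in control mice. As each deviation is from a mean of only 3 libraries, these values cannot settle whether a number marks 1 mouse. A replicate block gave 459 called genes, 20 against control and 133 against pMC.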
